A study of Mus musculus with 8 samples.

Results

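The genes described here are the AKT kinases and the mTOR complexes they feed: Akt1, Akt2, Pdpk1, Mtor, Rictor, Rptor, Tsc1, Tsc2 and Rheb. They were chosen by name as the core of this pathway, and each was read by the probe that the platform annotation gives only that symbol. All 9 had 1 such probe, among 22180 genes with a probe of their own. Their expression was measured in 8 primary mammary tumours of transgenic FVB mice, with 1 array of total RNA per tumour. In 4 tumours the genotype was NeuNT, a transgene for a form of Neu, the rodent ErbB2 receptor tyrosine kinase. The other 4 tumours, labelled NeuNT/H1074R, carried NeuNT and a mutant p110α, a catalytic part of phosphoinositide 3-kinase (PI3K). The series title spells the mutation H1047R, and the spelling of the sample labels is kept here. NeuNT is thus shared by both groups, and no tumour without it was compared. No treatment was given, and the labels name neither the promoters that drive the transgenes, nor the age of the mice, nor whether each tumour came from its own mouse, so p-values reflect only how far these tumours spread. Whether the probes for Erbb2 and Pik3ca read the transgenes is not known, so the genotype labels were not checked with them.

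PI3K makes a membrane lipid that recruits AKT and its activating kinase PDK1, the product of Pdpk1. The kinase mTOR works in a pair of complexes. mTORC1, defined by Raptor (Rptor), drives protein synthesis and restrains autophagy, and mTORC2, defined by Rictor, completes the activation of AKT. Active AKT phosphorylates TSC2, which relieves the small GTPase RHEB of the TSC1-TSC2 brake and so switches on mTORC1. In ErbB2-driven mammary tumours this route is a main branch below the receptor. It is controlled largely by phosphorylation, which an RNA array does not read, so the values below are transcript levels only.

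The sequence upstream of a gene is one part of what sets its transcript level, and it is shown for the 3 genes that make and tell apart the complexes. Each run is the 250 bases before the RefSeq start, 5′ to 3′ on the gene's strand (assembly GRCm38.p6), and capitals mark motif matches. The windows are chr4:148448332-148448581 for Mtor, chr15:6708131-6708380 for Rictor and chr11:119602655-119602904 for Rptor, all on the plus strand.
Mtor: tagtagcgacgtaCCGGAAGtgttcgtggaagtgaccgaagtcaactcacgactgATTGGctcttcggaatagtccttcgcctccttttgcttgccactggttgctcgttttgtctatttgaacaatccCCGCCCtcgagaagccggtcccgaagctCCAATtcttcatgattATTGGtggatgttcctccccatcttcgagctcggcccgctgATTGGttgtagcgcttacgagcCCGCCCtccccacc
Rictor: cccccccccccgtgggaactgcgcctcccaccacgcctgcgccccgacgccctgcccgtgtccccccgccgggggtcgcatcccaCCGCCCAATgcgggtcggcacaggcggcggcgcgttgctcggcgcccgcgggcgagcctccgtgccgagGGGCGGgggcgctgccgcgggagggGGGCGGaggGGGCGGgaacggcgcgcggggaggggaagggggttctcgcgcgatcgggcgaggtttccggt
Rptor: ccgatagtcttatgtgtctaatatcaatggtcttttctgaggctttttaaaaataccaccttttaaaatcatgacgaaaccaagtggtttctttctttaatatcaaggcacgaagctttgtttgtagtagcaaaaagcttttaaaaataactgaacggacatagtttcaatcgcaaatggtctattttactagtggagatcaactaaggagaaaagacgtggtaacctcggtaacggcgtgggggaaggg
The search covered both strands for the GC box GGGCGG, the CCAAT box CCAAT, the ETS core CCGGAAG, the E-box CACGTG, the CRE TGACGTCA, the TATA box TATAAA and the NRF1 site. Matches could overlap, as they do at 1 place in the Rictor window. The Mtor window held 2 GC boxes, 4 CCAAT boxes and 1 ETS core. The Rictor window held 4 GC boxes and 1 CCAAT box, and these letters gave 0 matches in the Rptor window. Of all 32851 windows of this length, 32.7% held a GC box, 33.8% a CCAAT box, 6.91% an ETS core, 6.02% the E-box, 1.55% the CRE, 12.4% the TATA box and 4.98% the NRF1 site. G and C made up 81.2% of the Rictor window, 54.4% of the Mtor window and 37.6% of the Rptor window, beside a median of 52.4% over all windows. All 9 genes were matched in the RefSeq table, with 14 windows in all, because Akt1, Akt2 and Pdpk1 have several annotated starts. A match is a description of the letters and not a binding site.

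None of the 9 genes separated the genotypes. Their means differed by at most 0.20 on the log2 scale, 4 were higher and 5 lower in NeuNT/H1074R tumours, and the groups overlapped for every one of them. In the test across all genes (limma, Benjamini-Hochberg adjustment over 16635 genes, threshold 0.05), 0 of the 9 passed, with adjusted p from 0.978 to 0.988, and 0 had an unadjusted p under 0.05. Over all tested genes 0 passed as well (0%), 3.82% had an unadjusted p under 0.05 (2.11% with the NeuNT/H1074R mean higher, 1.71% with it lower), and 2.69% did not overlap between the groups. A difference above 0 was found for 49.5% of all tested genes. The median difference was −0.04 over the 9 genes and −0.0027 over all genes, and the median absolute difference was 0.094 against 0.132. Differences are given throughout as NeuNT/H1074R minus NeuNT.

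**Figure D1:**
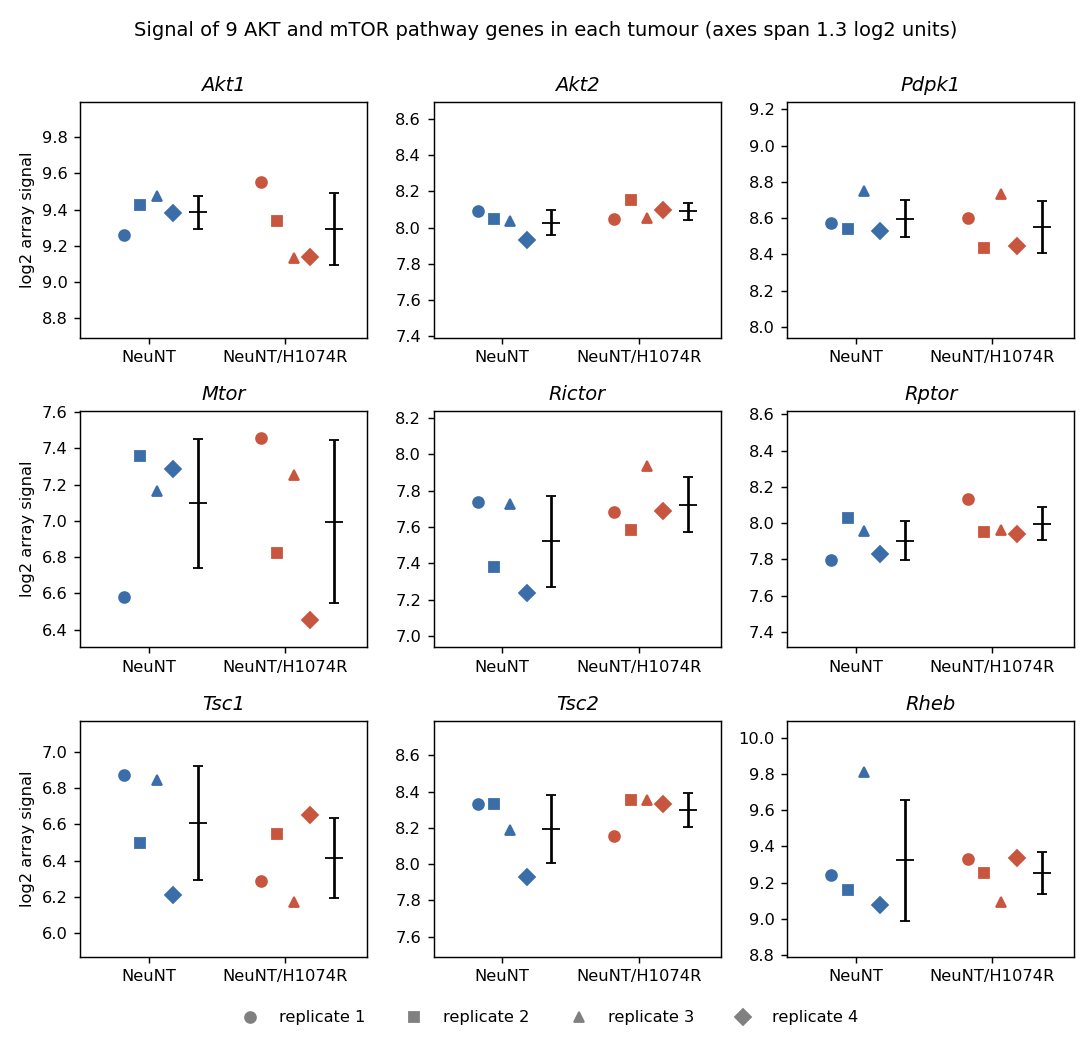
Log2 array signal of each of the 9 genes (vertical axes, all spanning the same number of log2 units) in the 4 NeuNT tumours (blue) and the 4 NeuNT/H1074R tumours (red); marker shape gives the replicate, and the black bars show the mean ± SD of each group. The groups overlap in every panel, Akt2 stays between 7.93 and 8.15, and Mtor runs from 6.45 to 7.46.

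The AKT kinases themselves were steady. Akt1, the isoform linked most to cell survival and growth, read 9.26, 9.42, 9.48 and 9.38 in NeuNT tumours 1 to 4 and 9.55, 9.34, 9.13 and 9.14 in NeuNT/H1074R tumours 1 to 4 (log2 signal). The highest and the lowest value both lay in the NeuNT/H1074R group, where 1 tumour was above and 2 were below all NeuNT tumours. The log2 difference was −0.09 ± 0.13 (SE; limma, adjusted p = 0.978), with a 95% interval from 0.765-fold to 1.15-fold. Leaving out single tumours moved it from −0.18 without NeuNT/H1074R replicate 1 to −0.041 without NeuNT/H1074R replicate 3.

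Akt2, the isoform best known for insulin-driven glucose uptake, was the steadiest of the 9. It read 8.09, 8.05, 8.04 and 7.93 in NeuNT tumours and 8.05, 8.15, 8.05 and 8.10 in NeuNT/H1074R tumours. The lowest tumour, NeuNT replicate 4, and the highest, NeuNT/H1074R replicate 2, were 1.17-fold apart. Only 0.379% of the tested genes had a smaller residual SD between tumours of a genotype than the 0.0593 of Akt2. Its log2 difference was 0.06 ± 0.10 (SE; limma, adjusted p = 0.98), with a 95% interval from 0.888-fold to 1.23-fold, and was 0.029 without NeuNT replicate 4.

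Pdpk1 encodes PDK1, the kinase that phosphorylates the activation loop of AKT. Its signal was 8.57, 8.54, 8.75 and 8.53 in NeuNT tumours and 8.60, 8.43, 8.73 and 8.45 in NeuNT/H1074R tumours. In each genotype 1 tumour, replicate 3 in both, stood above the rest of its group. The log2 difference of −0.04 ± 0.12 (SE; limma, adjusted p = 0.988) turned to 0.0055 without NeuNT replicate 3 and was −0.11 without NeuNT/H1074R replicate 3. Its 95% interval ran from 0.803-fold to 1.17-fold.

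**Figure D2:**
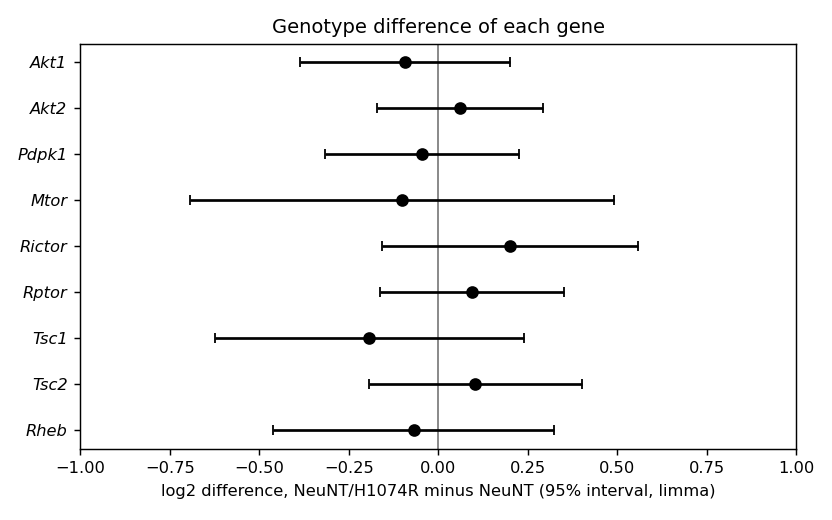
Log2 difference of each gene (points, NeuNT/H1074R minus NeuNT) with its 95% interval from limma (bars), over 4 tumours per genotype. Every interval spans 0; the narrowest is that of Akt2, from −0.17 to 0.29, and the widest that of Mtor, from −0.69 to 0.49.

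The kinase shared by both complexes varied most. Mtor read 6.58, 7.36, 7.16 and 7.29 in NeuNT tumours and 7.46, 6.82, 7.25 and 6.45 in NeuNT/H1074R tumours. Both genotypes held low tumours, namely NeuNT replicate 1 and NeuNT/H1074R replicates 2 and 4, and the highest and lowest of the 8 were 2.01-fold apart. Mtor had a residual SD of 0.404, above that of 76.8% of the tested genes. Its log2 difference was −0.10 ± 0.26 (SE; limma, adjusted p = 0.988), with a 95% interval from 0.619-fold to 1.41-fold, the widest of the 9. It turned to 0.080 without NeuNT/H1074R replicate 4 and was −0.27 without NeuNT replicate 1.

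Rictor, the scaffold that defines mTORC2, had the largest difference of the 9. Signals were 7.74, 7.38, 7.73 and 7.24 in NeuNT tumours and 7.68, 7.58, 7.94 and 7.69 in NeuNT/H1074R tumours. NeuNT replicates 2 and 4 lay below all NeuNT/H1074R tumours, and NeuNT replicates 1 and 3 lay among them. Rictor differed by 0.20 ± 0.16 on the log2 scale (SE; limma, adjusted p = 0.978), with a 95% interval from 0.897-fold to 1.47-fold, and was 0.11 without NeuNT replicate 4.

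Rptor, the substrate-binding subunit of mTORC1, was again narrow, at 7.80, 8.03, 7.96 and 7.83 in NeuNT tumours and 8.13, 7.95, 7.96 and 7.94 in NeuNT/H1074R tumours. Only 4.26% of the tested genes had a smaller residual SD than Rptor. NeuNT/H1074R replicate 1 stood above all other tumours. The log2 difference was 0.09 ± 0.11 (SE; limma, adjusted p = 0.978), with a 95% interval from 0.893-fold to 1.28-fold, and was 0.048 without that tumour.

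The brake on mTORC1 differed in opposite directions for its main parts, within the spread. Tsc1, which stabilises the complex, read 6.87, 6.50, 6.85 and 6.21 in NeuNT tumours and 6.29, 6.55, 6.17 and 6.65 in NeuNT/H1074R tumours. Its log2 difference was −0.19 ± 0.19 (SE; limma, adjusted p = 0.978), with a 95% interval from 0.649-fold to 1.18-fold. It was −0.32 without NeuNT replicate 4 and −0.10 without NeuNT replicate 1, since these were the lowest and the highest NeuNT tumour. Tsc2, which carries the GTPase-activating domain that AKT counteracts, read 8.33, 8.33, 8.19 and 7.93 in NeuNT tumours and 8.16, 8.35, 8.35 and 8.33 in NeuNT/H1074R tumours. Here 3 NeuNT/H1074R tumours lay just above all NeuNT tumours and the other lay below 3 of them. The log2 difference of 0.10 ± 0.13 (SE; limma, adjusted p = 0.978) was 0.016 when NeuNT replicate 4 was left out, and its 95% interval ran from 0.875-fold to 1.32-fold.

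Rheb, the GTPase that activates mTORC1, had a log2 signal of 9.24, 9.16, 9.81 and 9.08 in NeuNT tumours and 9.33, 9.25, 9.09 and 9.34 in NeuNT/H1074R tumours. NeuNT replicate 3 stood alone, and the other 7 tumours lay between 9.08 and 9.34. The log2 difference was −0.07 ± 0.17 (SE; limma, adjusted p = 0.988), with a 95% interval from 0.727-fold to 1.25-fold, turned to 0.093 without that tumour and was −0.15 without NeuNT replicate 4.

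The balance between partners within a tumour also overlapped between genotypes. The log2 ratio of Akt2 to Akt1 was higher by 0.15 in NeuNT/H1074R tumours, with an SD of 0.13 in NeuNT and 0.21 in NeuNT/H1074R tumours. For Rictor against Rptor, which tells mTORC2 from mTORC1, the ratio was higher by 0.11, with SDs of 0.28 and 0.19. For Tsc2 against Tsc1 it was higher by 0.30, with SDs of 0.23 and 0.21. The ratio differed by −0.20 for Mtor against Rptor (SDs 0.29 and 0.38) and by −0.30 for Mtor against Rictor (0.56 and 0.41). These ratios are descriptions without a test.

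No pair of the 9 genes passed a test of varying together. Over the 36 pairs of the 9 genes, Pearson's r across the 8 tumours was above 0 for 22 and below 0 for 14, with a median of 0.145. After adjustment over the 36 pairs, 0 passed an exact two-sided permutation of the pairings (smallest adjusted p = 0.194 for r and 0.495 for Spearman's rho), and 1 and 2 pairs had an unadjusted p under 0.05.

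The closest pair was Akt2 and Tsc2, with r = 0.857 and rho = 0.786 (exact permutation, adjusted p = 0.194 and 0.495). NeuNT replicate 4 was the lowest tumour for both genes, and r was 0.556 without the 2 tumours farthest from the Akt2 median. Tsc1 and Rheb followed at r = 0.643 (rho = 0.643; 0.790 without 2 tumours), and Akt1 and Mtor at r = 0.628 (rho = 0.643; 0.859 without 2 tumours). Mtor ran opposite to Tsc1 (r = −0.636, rho = −0.667; −0.417 without 2 tumours) and to Akt2 (r = −0.600, rho = −0.643; −0.926 without 2 tumours), and adjusted p was 0.651 for the r of these 4 pairs (exact permutation). Mtor and its partners gave r = 0.536 with Rptor and −0.256 with Rictor. By rank Akt1 ran opposite to Tsc2 (rho = −0.786, exact permutation, adjusted p = 0.495). Its r with Tsc2 was −0.497, and −0.323 without 2 tumours.

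**Figure D3:**
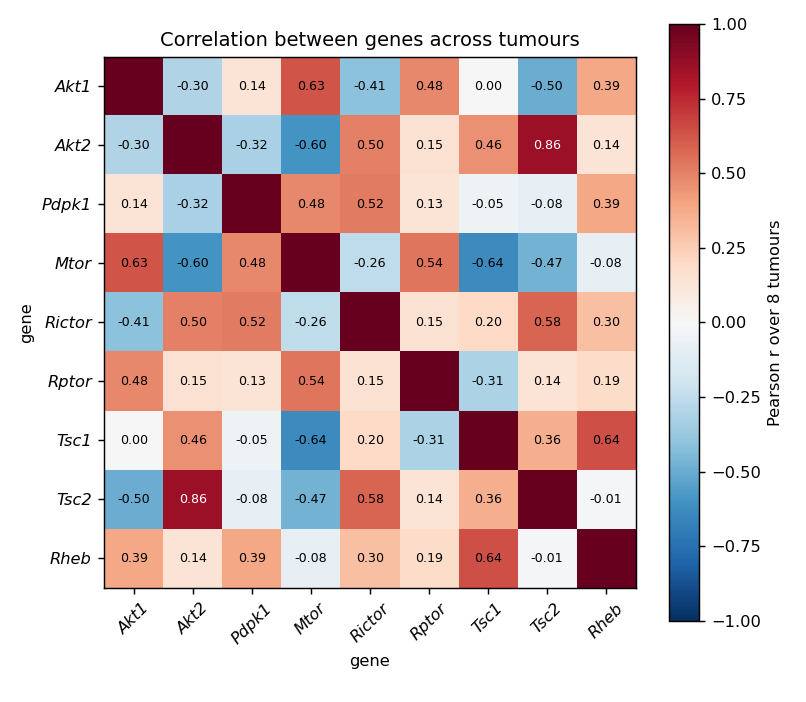
Pearson's r over the 8 tumours for each pair of the 9 genes (rows and columns), from −1 (blue) to 1 (red). Akt2 and Tsc2 have the highest value, 0.86, and Mtor is opposite to Tsc1 and Akt2; no pair passed after adjustment over the 36 pairs.

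The tumours are mixed tissue, and markers of other cell types differed between them. Of 10 luminal epithelial markers 9 had a probe, and all 9 were above the threshold for dim genes (4.06) in every tumour, the lowest value being 5.37 for the keratin Krt19 in NeuNT replicate 3. The mean over these markers ran from 9.49 to 9.80 in NeuNT and from 9.48 to 10.1 in NeuNT/H1074R tumours. The mean over basal markers (6 of 7) ran from 6.72 to 9.75 in NeuNT and 6.75 to 8.58 in NeuNT/H1074R tumours, and that over macrophage markers (6 of 6) from 8.28 to 8.97 and 7.64 to 9.04. The mean over T cell markers (6 of 6) ran from 5.17 to 6.61 and 5.10 to 5.78, and that over skeletal muscle markers (10 of 10) from 4.59 to 5.17 and 4.81 to 7.02, with NeuNT/H1074R replicates 1 and 3 at 7.02 and 6.55. Means over adipocyte markers (8 of 9) ran from 5.75 to 7.14 in NeuNT and 5.19 to 6.13 in NeuNT/H1074R tumours, over mast cell markers (6 of 6) from 5.42 to 6.70 and 4.65 to 5.64, and over fibroblast markers (8 of 8) from 7.92 to 9.29 and 7.83 to 8.72. The group mean in NeuNT/H1074R tumours was higher for 9 of 9 tested skeletal muscle markers (median difference 1.23). It was lower for 5 of 5 tested mast cell markers (−1.05), 8 of 8 adipocyte markers (−0.80) and 5 of 6 basal markers (−0.52). Shifts were smaller for T cell markers (6 of 6 lower, −0.36), macrophage markers (6 of 6 lower, −0.32) and fibroblast markers (7 of 8 lower, −0.29). Endothelial markers (3 of 5 lower, −0.095) and luminal markers (4 of 9 lower, 0.065) were split. Of the tested markers 0 passed between genotypes (limma, adjusted over all genes). Without the tumours of high muscle signal, 0 of the 9 pathway genes passed (limma), and all but Tsc2 moved by over 1.5 times. Mtor then stood at −0.46, Pdpk1 at −0.16, Akt1 at −0.15, Rheb at −0.028, Tsc1 at −0.0079, Rptor at 0.043, Akt2 at 0.099 and Rictor at 0.11. The part of muscle tissue in these values was not tested. In bulk RNA fewer cells of a type and less RNA per cell cannot be told apart.

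Akt1 and Rictor each followed an immune marker list from tumour to tumour. The 9 genes were set against 9 marker lists and Erbb2, 90 relations in all, a comparison chosen after the data had been seen. Adjustment covered these 90 relations only, and the share of all tested genes that follow a list as closely was not computed. Akt1 was higher where macrophage markers were higher, with r = 0.927 (exact permutation, adjusted p = 0.0134) and rho = 0.929 (adjusted p = 0.100). The value of r was 0.890 without the 2 tumours farthest from the median and 0.918 with each genotype centred on its own mean (adjusted p = 0.0826). NeuNT/H1074R replicates 1 and 3 were the extremes of both measures, with Akt1 at 9.55 and 9.13 and the macrophage list at 9.04 and 7.64. Of the single markers, the surface receptor Adgre1 (F4/80) had r = 0.935 with Akt1, the lysozyme Lyz2 0.843, the growth factor receptor Csf1r 0.798, the integrin Itgam 0.734, the mannose receptor Mrc1 0.618 and Cd68 0.586.

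Rictor was lower where T cell markers were higher, with r = −0.945 (exact permutation, adjusted p = 0.0179) and rho = −0.929 (adjusted p = 0.100). The value was −0.829 without the 2 tumours farthest from the median and −0.937 with each genotype centred on its own mean (adjusted p = 0.0446). NeuNT replicates 4 and 2 had the highest T cell means, 6.61 and 6.24, and the lowest Rictor values, 7.24 and 7.38. Of the CD3 chains of the T cell receptor complex, Cd3e and Cd3g had r = −0.968 and −0.896 with Rictor, while Cd3d had −0.249. The coreceptor Cd8a had −0.851, Thy1 −0.565 and Cd2 −0.328. Neither relation passed for rho, and leaving out single tumours kept r between 0.916 and 0.946 for Akt1 and between −0.982 and −0.893 for Rictor. Over 7 tumours the adjusted p of r for Akt1 was 0.0357 without NeuNT/H1074R replicate 2 and 0.0536 to 0.170 without each of the others. For Rictor it was 0.0179 without NeuNT replicate 1 and 0.0536 to 0.308 without each of the others. The part of cell mix in the level of either gene was not tested.

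**Figure D4:**
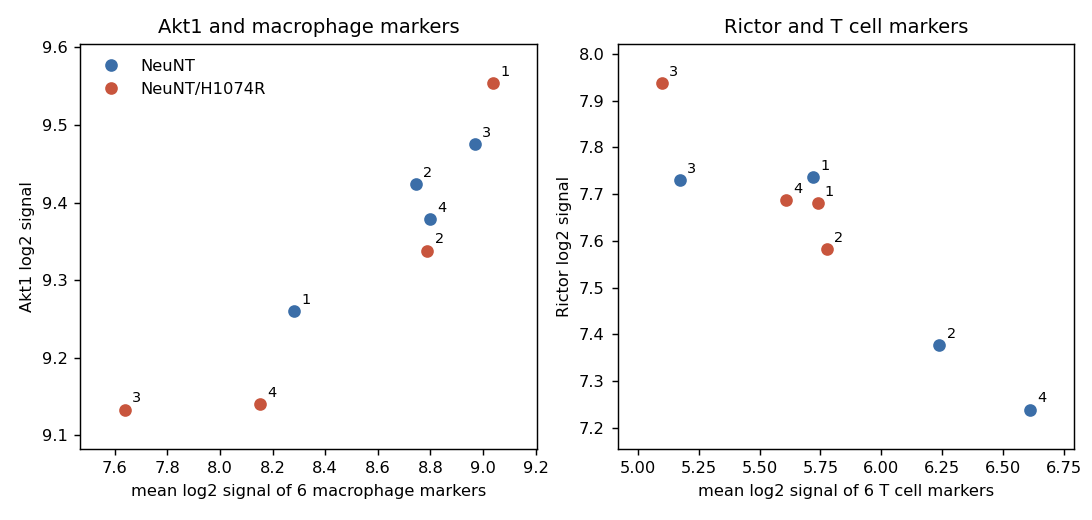
Left, Akt1 log2 signal against the mean log2 signal of 6 macrophage markers; right, Rictor log2 signal against that of 6 T cell markers; each point is a tumour, numbered by replicate, with NeuNT in blue and NeuNT/H1074R in red. Akt1 is higher in tumours with more macrophage marker signal (r = 0.927) and Rictor lower in those with more T cell marker signal (r = −0.945).

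The other 88 relations did not pass. Those of smallest p for r were Mtor with basal markers (r = 0.759, rho = 0.786, and r = 0.822 without 2 tumours) and Tsc1 with Erbb2 (r = 0.738, rho = 0.738, and r = 0.796 without 2 tumours). Both had an adjusted p of 0.822 for r (exact permutation). Whether the Erbb2 probe reads the transgene is not known. Rptor had r = 0.724 with skeletal muscle markers (rho = 0.833; 0.780 without 2 tumours; exact permutation, adjusted p = 0.837). By rank, Tsc1 ran opposite to basal markers (rho = −0.833, r = −0.653, and r = −0.911 without 2 tumours). Mtor had rho = −0.810 with Erbb2, and Tsc2 had rho = −0.786 with macrophage markers. For rho the adjusted p was 0.346, 0.359 and 0.359 in this order (exact permutation).

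Some of the genes beside Akt1 varied like it and others did not. Over the 5 tested genes on each side in RefSeq order on chromosome 12, the median r with Akt1 was 0.717, and 0.793% of 16390 genes had a neighbourhood as like them or more so, against a median of 0.0956. The highest were Pld4, an endolysosomal nuclease (0.890), Ahnak2 (0.824) and Zbtb42 (0.797), all on the same side of Akt1. On the other side Inf2 had 0.723 and A530016L24Rik 0.525, while Siva1, next to Akt1, had −0.087, Tmem179 −0.262 and Adssl1 −0.446. Around Pdpk1 on chromosome 17 the median r was 0.591 (2.17% of genes as high), with Amdhd2 at 0.775 and Kctd5 at 0.774 next to it. For Mtor on chromosome 4 it was 0.422 (8.71%), with Srm, the spermidine synthase, at 0.920, Exosc10, a nuclease of the RNA exosome, at 0.907 and Tardbp at 0.798, while Disp3, next to Mtor, had −0.434 and Fbxo44 −0.508. The other 6 genes had medians from −0.040 for Tsc1 to 0.349 for Tsc2. These are descriptions over 8 tumours with no test, and 0 of the neighbours differed between genotypes in limma after adjustment.

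The genes most like each member over the 8 tumours, by Pearson's r, are given as a description, since the best of so many genes is always close. For Akt1 these were Ctsw, a cathepsin of lymphocytes (0.982), and Sec24b, a vesicle coat protein (0.980). Cracdl (0.969) and the zinc finger gene Zfp667 (0.965) were most like Akt2. Pdpk1 was closest to Ceacam20 and Spast, a microtubule-severing enzyme (both 0.983). Capzb, which caps actin filaments, had 0.984 with Mtor, and Dusp1, a phosphatase of MAP kinases, 0.981. Rictor was most like Zbtb22 (0.969) and Sh3bp4 (0.958), and Rptor most like Inpp5a, an inositol phosphatase (0.959), and Prex1, an exchange factor for Rac (0.954). The closest to Tsc1 were Zscan29 (0.973) and Pttg1ip (0.965), to Tsc2 Pcx, the pyruvate carboxylase (0.985), and Ankrd46 (0.966), and to Rheb Vps8, an endosomal tethering protein (0.984), and Cdh23 (0.968). Mtor had 107 genes with r above 0.9 and Rptor 11.

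The rest of the pathway was described through 10 lists with 132 genes, of which 123 had a probe of their own and 122 were tested. Of these, 46 were higher and 76 lower in NeuNT/H1074R tumours and 0 passed (limma, adjusted over all tested genes). At an unadjusted p under 0.05 there were 4, all lower, which is 3.28% of the list genes beside 3.82% of all genes, and 3 genes (2.46%, beside 2.69%) did not overlap between groups. The median difference was −0.06.

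Sgk3 had the largest difference of the 122 genes. The SGK kinases share substrates with AKT, and Sgk1 depends on mTORC2. Sgk3 read 7.13, 6.23, 6.96 and 7.16 in NeuNT tumours and 6.19, 6.57, 5.62 and 6.05 in NeuNT/H1074R tumours. Among NeuNT tumours replicate 2 lay with the other genotype. It differed by −0.76 ± 0.27 on the log2 scale (SE; limma, adjusted p = 0.978). Sgk1 read 8.36, 8.80, 8.38 and 7.94 in NeuNT and 8.22, 7.92, 7.77 and 7.52 in NeuNT/H1074R tumours, a log2 difference of −0.51 ± 0.21 (SE; limma, adjusted p = 0.978). Sgk2 stood at 0.054, and from −0.042 to 0.13 when single tumours were left out.

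Of the 6 other subunits of the mTOR complexes, 3 were higher and 3 lower, with a median difference of −0.10. The mTORC2 partner Prr5l differed by −0.31, the mTORC1 inhibitor Akt1s1 (PRAS40) by 0.20, the mTORC2 subunit Mapkap1 (SIN1) by −0.22 and Deptor, an inhibitor of mTOR, by −0.46. Leaving out single tumours moved Deptor from −0.77 to −0.21, and without NeuNT replicate 3 Mapkap1 stood at −0.10 and Akt1s1 at 0.12. Prr5l stood at −0.14 without NeuNT/H1074R replicate 3 and at −0.11 without both tumours of high muscle signal. Among 5 chaperones that assemble mTOR and related kinases the median was −0.038, with Telo2 at 0.14 and Ruvbl2 at −0.14. Tbc1d7, the further subunit of the TSC complex, stood at 0.11 and Rhebl1, the relative of Rheb, at −0.029. With single tumours left out, Telo2 ran from 0.064 to 0.22, Ruvbl2 from −0.24 to −0.033, Tbc1d7 from 0.027 to 0.21 and Rhebl1 from −0.14 to 0.058. Without both tumours of high muscle signal Ruvbl2 stood at −0.39, Tbc1d7 at 0.31 and Rhebl1 at −0.21.

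Among the inputs to AKT and mTORC1, both restraining and activating, 20 genes were higher and 31 lower. The AKT phosphatases had 4 of 10 higher and a median of −0.035, with Phlpp1, which removes the mTORC2 phosphate from AKT, at 0.65 ± 0.37 (SE; limma, adjusted p = 0.978). NeuNT/H1074R replicates 2 and 4 carried it, at 8.86 and 9.39 against 7.37 to 8.31 in the other 6 tumours. Of 12 energy and stress inputs 3 were higher, with a median of −0.11. Ddit4 (REDD1), which hypoxia and stress induce to restrain mTORC1, stood at 0.62 ± 0.35 (SE; limma, adjusted p = 0.978). Its highest values, 9.52 and 9.84, were those of NeuNT/H1074R replicates 1 and 3, the tumours with high muscle markers, and without both the difference was 0.036, while that of Phlpp1 was 1.25. Phlpp1 stood at 0.36 without NeuNT/H1074R replicate 4 and Ddit4 at 0.37 without NeuNT/H1074R replicate 3. The AMPK subunits Prkab1 and Prkab2 stood at −0.25 and −0.20 and Stradb at −0.33. Prkab1 was −0.16 without NeuNT replicate 2, Prkab2 −0.087 without NeuNT replicate 1 and Stradb −0.52 without both tumours of high muscle signal. Of 29 tested amino acid inputs, 13 were higher and 16 lower (median −0.063), among them the lysosomal scaffold Lamtor3 at −0.33, the sestrin Sesn3 at 0.54, Castor2 at −0.46 and the GATOR2 subunit Wdr59 at 0.40. Without NeuNT replicate 3 Lamtor3 stood at −0.22 and Sesn3 at 0.33, without NeuNT replicate 4 Castor2 stood at −0.30, and without both tumours of high muscle signal Wdr59 stood at 0.64.

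Among the outputs, Crtc2, a CREB coactivator that mTORC1 targets, gave the smallest unadjusted p. It read 8.16, 8.33, 8.27 and 8.03 in NeuNT tumours and 7.99, 7.65, 7.50 and 7.78 in NeuNT/H1074R tumours. All NeuNT/H1074R tumours lay below all NeuNT tumours, and the log2 difference was −0.47 ± 0.14 (SE; limma, adjusted p = 0.978). In its list of 18 tested mTORC1 substrates and translation genes, 9 were higher and 9 lower (median 0.0011). Rps6kb2, an S6 kinase, stood at −0.33, the helicase Eif4a1 at 0.25 and its partner Eif4b at 0.32. Rps6kb1, Eif4ebp3, Eif4g1 and Pdcd4 were also listed but had no probe of their own, so they were not read. Eif4a1 did not overlap either, and was 0.14 without NeuNT replicate 3 and 0.11 with all its probes averaged. AKT substrates had a median of −0.048 over 11 genes, with the transcription factors Foxo1 at 0.47 and Foxo3 at −0.19, the glucose transport regulator Tbc1d4 at 0.51 and Nos3 at −0.14. Foxo1 and Tbc1d4 stood at 0.84 and 0.79 without both tumours with high muscle markers, and Foxo1 at 0.31 without NeuNT replicate 4. Without NeuNT replicate 2 Foxo3 stood at −0.084, Nos3 at −0.081 and Tbc1d4 at 0.77, and without NeuNT replicate 3 Foxo3 stood at −0.30. Genes of lysosomes and of the TFEB family, which mTORC1 holds back, were lower for 20 of 26 (median −0.086), where 49.5% of all genes were higher, each of the 20 by less than 0.30. Macrophage markers were lower in the same group (6 of 6, median −0.32), and their part in this was not tested. Named genes of the list were Tpp1 at −0.25, whose groups did not overlap, Ctsa at −0.25, Gabarapl1 at −0.30 and Psap at 0.14. Gabarapl1 stood at −0.10 without NeuNT replicate 1. Leaving out NeuNT/H1074R replicate 3 put Ctsa at −0.12, Gabarapl1 at −0.19 and Psap at 0.21. For all these named outputs the adjusted p was 0.978 (limma).

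**Figure D5:**
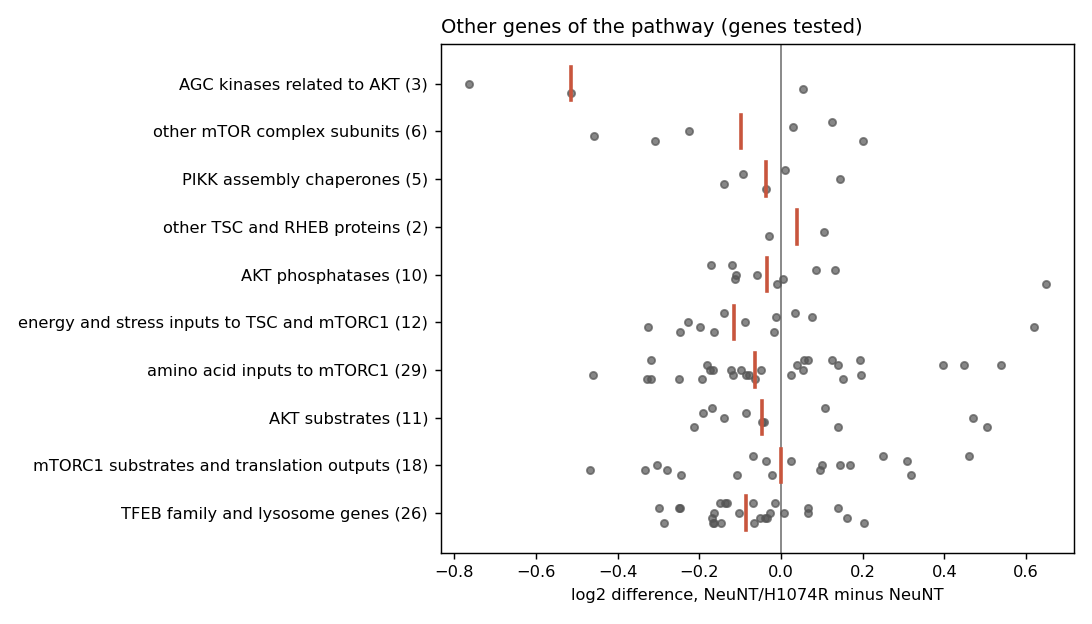
Log2 difference (NeuNT/H1074R minus NeuNT, horizontal axis) of each tested gene in 10 lists of other pathway genes; each point is a gene, the red bar is the list median and the number of genes is in brackets. Medians lie close to 0 except for the 3 kinases related to AKT (−0.51), and 0 of the 122 genes passed.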

How the data were processed

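The authors deposited log2 values for 41345 probes in 8 tumours, 1 array each; per the submitters' processing notes, Affymetrix Expression Console and Transcriptome Analysis Console were used. For versions, background correction and normalization the sources used here give no method. Array medians lay between 4.81 and 4.87, so values were used as deposited. A gene was read by the probe annotated with only its symbol, that of highest mean if several (1082 genes). Genes in the lowest 25% of means (under 4.06) were left out, leaving 16635; all 9 members passed. Genotypes were compared with limma 3.58.1 in R 4.3.3 (lmFit, eBayes with trend, two-sided, no covariate), tested on simulated data. A signal cannot be compared between genes, and the number of arrays limits precision. Members and lists were chosen with earlier results of these data known. Named in the text are all members, up to 4 genes of smallest p per pathway list, and the 2 genes most like each member, without predicted names; neighbours, single markers and others were chosen after their values were seen. Correlations were tested by exact permutation, computed with numpy 2.4.6 on values or on ranks from scipy 1.17.1. Alternatives covered normalization, filter, probes, variance model, weights and left-out tumours.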

Additional observations from a re-analysis of the deposited data

Results flagged for a closer look

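Groups of 4 tumours were searched for a tumour far from the other 3, in both genotypes, for the 9 genes and the pathway genes of smallest p. Of 92 groups 8 held such a tumour, among them 2 of the 18 groups of the 9 genes. The rule flags about 1 in 20 groups of normally distributed values. The share over all tested genes was not computed, so these counts are not read as an excess. In NeuNT/H1074R replicate 1 Rptor stood at 8.13 against 7.94 to 7.96 in the other 3 tumours of its group, and Tsc2 at 8.16 against 8.33 to 8.35. The same tumour had Castor2 at 6.12 (5.39 to 5.49 in the others) and Nos3 at 6.07 (5.96 to 5.97). NeuNT/H1074R replicate 3 had Ppp2r5d at 8.13 (7.91 to 7.94) and Psap at 11.4 (11.7 in the others). In NeuNT replicate 3, Mapkap1 stood at 8.39 (7.87 to 7.92) and Eif4a1 at 12.7 (13.1 to 13.2).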

How the results depend on the processing

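No paired analysis was possible because no tumour number of one genotype recurs in the labels of the other. The counts of genes, of members, of pathway genes and of member pairs past the threshold stayed at 0 under each alternative run on them. At an unadjusted p under 0.05 limma gave 373 to 1107 of 16635 genes. It gave 358 of 11090 genes with the lower 50% left out, and 936 of 22180 with no filter on dim genes. The highest count, 1107, is without both tumours of high muscle signal, chosen after seeing the data. The members' median ran from −0.060 to 0.065 when single tumours were left out. Leaving out single tumours turned the sign of some differences: Mtor ran from −0.27 to 0.080, Pdpk1 from −0.11 to 0.0055, Rheb from −0.15 to 0.093, Tti1 from −0.17 to 0.016, Ruvbl1 from −0.12 to 0.086, Rhebl1 from −0.14 to 0.058 and Sgk2 from −0.042 to 0.13. After quantile normalization Akt1 stood at −0.046, Pdpk1 at −0.0079, Mtor at −0.064, Rheb at −0.026 and Akt2 at 0.10. The 2 relations with marker lists fell to 1 with genotypes centred, where r of Akt1 with macrophage markers was 0.918 (adjusted p = 0.0826), and to between 0 and 1 when single tumours were left out, with r from 0.916 to 0.946 for Akt1 and from −0.982 to −0.893 for Rictor; a permutation of 7 tumours has fewer arrangements. Signal was well above the dim threshold for all 9 genes.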
